A study of Rattus norvegicus with 2 samples.

Results

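Genes of Toll-like receptor, inflammasome and NF-kB signalling were followed in microglia, macrophages that live in the brain, from rats after oxygen-glucose deprivation (OGD). They were taken as a list of 56 genes by symbol, from every probe set of the array that the platform annotation assigned to 1 of these genes alone. The array held 62 such probe sets for 44 of the genes, out of 14217 genes named in this way. One group of cells had been exposed to OGD for 3 h, a culture model of ischaemia in which oxygen and glucose are withheld (1 array). They were set against resting cells with no exposure (1 array). Both came from the Sprague Dawley strain and were grown in DMEM with 10% FCS. The labels used here do not say how the cells were isolated, how old the animals were or whether animals were pooled.

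Toll-like receptors bind microbial molecules and molecules released by damaged cells. They signal through the adaptors MYD88 and TRIF to IRAK kinases, TRAF ubiquitin ligases and the TAK1 and IKK kinases, which free NF-kB from its IkB inhibitors. Freed NF-kB enters the nucleus and induces cytokines, enzymes and several of its own inhibitors, so that the signal limits itself. Inflammasomes are separate cytosolic assemblies that activate inflammatory caspases, whose activity leads to mature interleukin-1 and to pores in the cell membrane. In microglia both systems are known as routes by which injured tissue is sensed.

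Intensities are given on the linear scale of the deposited values. The median probe set of each array, 19.7 on the OGD array and 19.6 on the resting array, was used as a floor below which no fold is given. A gene was called measured when its probe set with the highest mean was above the floor on at least 1 array. Of the 44 genes 30 were measured, 28 of them on both arrays, 14 were under the floor on both, and the other 12 had no probe set naming them alone. With 1 array per group no difference below has a test or an error across cultures. The only spread between repeated readings of a gene was that between its probe sets, an SD of 0.147 on the log2 scale over 1902 genes. It does not cover differences between cultures or labelling reactions. The log2 differences of all 9580 measured genes had an SD of 0.149, so a difference beyond the SD between probe sets does not set a gene apart from the array.

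Microglial identity was checked on markers. Of 15 microglial markers with a probe set 14 were measured, among them Aif1, Itgam, Cx3cr1, P2ry12 and Trem2. On the OGD array 13 were lower and 1, C1qc with a log2 difference of 0.29, was higher, and the median was -0.089. Of all measured genes 51.3% were lower. Some markers were dim: Cx3cr1 had 29.9 on the OGD array and 31.6 on the resting array, and P2ry12 had 30.6 and 36.6. The summed intensity over the microglial list was 1593 on the OGD array and 1652 on the resting array, carried largely by Trem2, Cd68 and Laptm5. Such sums add unlike probe sets, so they do not tell how many cells of a type were present. Of 7 astrocyte markers 3 were measured, all higher on the OGD array, and the list summed to 139.5 on the OGD array and 117.6 on the resting array. Gfap, the astrocyte filament protein, had 36.9 on the OGD array and 27.4 on the resting array, a log2 difference of 0.43, and the glutamate transporter gene Slc1a2 also had 0.43. Of the endothelial markers 1 of 3 was measured, Vwf, with a log2 difference of 0.28, and of the fibroblast markers 1 of 5, Col1a1, with 0.21. Oligodendrocyte markers were measured for 4 of 6 genes and neuronal markers for 2 of 6, with both signs in each list. The part of such cells in the values below was not tested.

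None of the 30 measured genes differed by the 1.5-fold that the series' design text names: 0 were higher and 0 were lower on the OGD array. Of all 9580 measured genes 0.115% passed this fold, 0.0731% higher and 0.0418% lower. The median log2 difference, OGD minus resting, was 0.036 over the 30 genes, against -0.0076 over all measured genes. By sign 17 of the 30 were higher, 10 lower and 3 exactly equal, where 42.8% of all measured genes were higher and 51.3% lower. Without Tlr1 and Irak4, each above the floor on 1 array only, 16 of 28 were higher, 9 lower and 3 equal. At 1.2-fold 1 gene, the inflammatory caspase Casp4, was higher and 0 were lower, which is 3.33% of the list, a count that was larger with a lower floor or none: 1 higher and 1 lower with a floor at the 30th percentile, and 3 higher and 4 lower of 44 genes with no floor. Among all measured genes 7.53% passed 1.2-fold, 3.56% higher and 3.97% lower. The quartiles of the list were -0.015 and 0.089, against -0.10 and 0.079 for all measured genes. Fewer cells with a transcript and less of it per cell cannot be told apart in such bulk RNA.

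**Figure D1:**
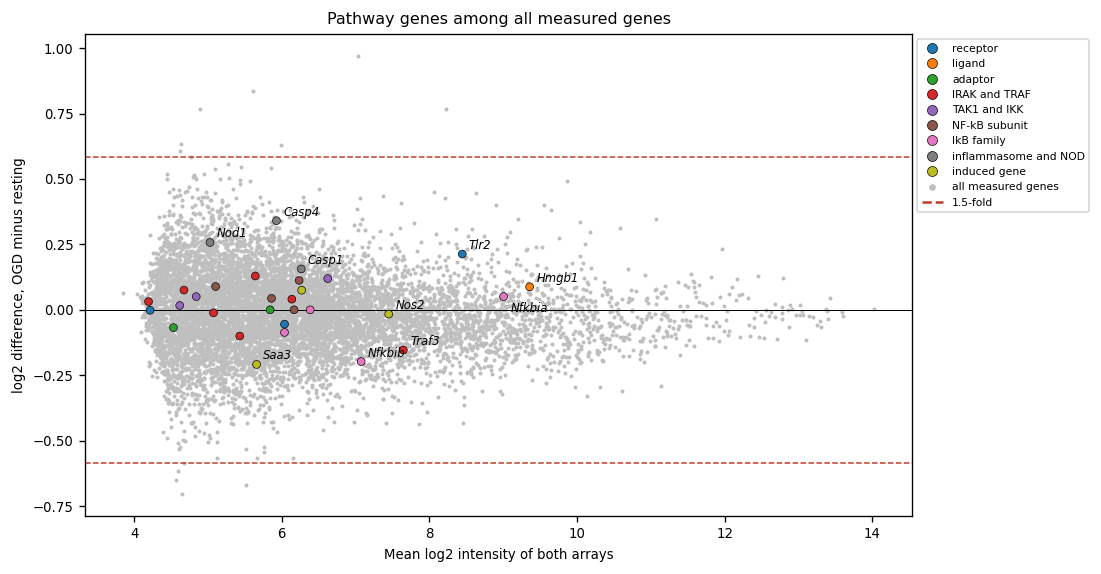
Log2 difference (OGD minus resting, vertical axis) against mean log2 intensity of both arrays (horizontal axis) for the 9580 measured genes in grey and the 30 measured pathway genes in colour by role. All 30 coloured points lie between the dashed 1.5-fold lines, from -0.21 for Saa3 to 0.34 for Casp4.

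Among the receptors Tlr2, which recognises bacterial lipoproteins together with TLR1 or TLR6, had an intensity of 375 on the OGD array and 324 on the resting array. It was thus 1.16-fold higher on the OGD array, a log2 difference of 0.21 that exceeds the SD between probe sets of a gene. This rests on 1 probe set, and 29.9% of all genes above the floor on both arrays reached that SD. Cd14, the co-receptor that passes lipopolysaccharide to TLR4, had 64.4 on the OGD array and 66.9 on the resting array, a log2 difference of -0.055. Tlr1, the partner of TLR2, was at the floor, with 17.6 on the OGD array and 19.7 on the resting array, which allows no fold. The lipopolysaccharide receptor Tlr4, its partner Ly96 (MD-2) and the endosomal RNA sensors Tlr7 and Tlr8 did not reach the floor on either array. Their intensities lay between 3.52 and 6.85 on the OGD array and between 3.73 and 8.85 on the resting array, so these probe sets give no direction. Tlr3, Tlr5, Tlr6 and Tlr9 had no probe set naming them alone. Hmgb1, a chromatin protein that acts as an alarm ligand of these receptors when released, had 676 on the OGD array and 636 on the resting array, 1.06-fold higher. A further probe set of Hmgb1, with the pseudogene Hmgb1-ps33 also named, had 5284 on the OGD array and 5230 on the resting array.

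Of the 4 adaptors 2 were measured, Ticam1 and Tirap. Ticam1, which encodes TRIF, the adaptor of TLR3 and of endosomal TLR4, had 57.4 on both arrays, the values being exactly equal. Its other probe set had 24.8 on the OGD array and 22.7 on the resting array, a log2 difference of 0.13. Tirap, the bridging adaptor between TLR2 or TLR4 and MYD88, had 22.6 on the OGD array and 23.7 on the resting array, 1.05-fold lower and close to the floor. Myd88, the adaptor shared by most of the family, was under the floor with 15.4 on both arrays, and Ticam2 had no probe set naming it alone.

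**Figure D2:**
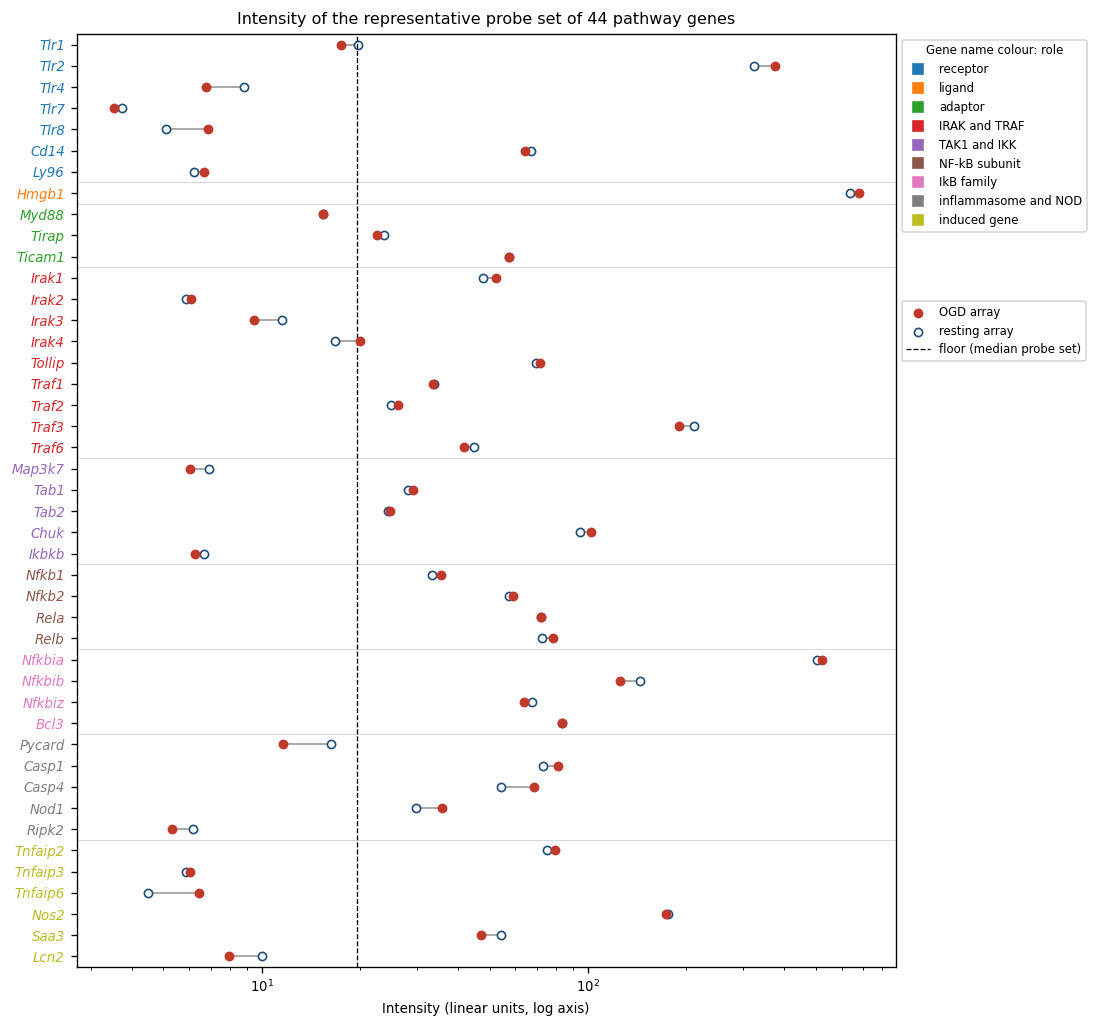
Intensity (log axis, linear units as deposited) of the representative probe set of each of the 44 genes on the OGD array (filled) and the resting array (open), grouped by role. The paired points nearly coincide for most genes above the floor (dashed), and intensities of different genes are not comparable because each probe set binds with its own strength.

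The kinases and ubiquitin ligases that carry the signal from the adaptors gave both signs. Irak1, the kinase recruited to MYD88, had 52.2 on the OGD array and 47.7 on the resting array, 1.09-fold higher. Its other probe set had 41.6 on the OGD array and 45.2 on the resting array, a log2 difference of -0.12, so the sign of Irak1 depends on the probe set. Irak4, the kinase that phosphorylates IRAK1, was just above the floor and only on the OGD array, with 20.1 there and 16.7 at rest, which allows no fold. Irak2 and the inhibitory family member Irak3 did not reach the floor on either array. Tollip, an adaptor that restrains IRAK1, had 71.3 on the OGD array and 69.3 on the resting array.

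Traf3, which directs signalling towards interferon induction and restrains the alternative NF-kB pathway, had 190.1 on the OGD array and 211 on the resting array, 1.11-fold lower, with a log2 difference of -0.15. The dimmer probe set of Traf3 was under the floor on both arrays, with 10.4 on the OGD array and 8.89 on the resting array. Traf6, the ubiquitin ligase between IRAK1 and TAK1, had 41.7 on the OGD array and 44.7 on the resting array, 1.07-fold lower. A second probe set of Traf6 gave 35.9 on the OGD array and 38.4 on the resting array, and the log2 differences of both probe sets were -0.10 and -0.099. Traf1, an NF-kB-induced member of the family, had 33.6 on the OGD array and 33.8 on the resting array, 1.01-fold lower. Traf2, which acts at tumour necrosis factor receptors, had 26.2 on the OGD array and 24.9 on the resting array, 1.05-fold higher. Among the 7 measured IRAK and TRAF genes, with Tollip, the log2 differences ran from -0.15 to 0.13.

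Of the kinases that release NF-kB, Chuk, which encodes IKK alpha, had 102.7 on the OGD array and 94.5 on the resting array, 1.09-fold higher. Tab1 and Tab2, which bind and activate TAK1, had 29.2 and 24.7 on the OGD array, against 28.2 and 24.4 on the resting array. These 3 genes were higher by less than the SD between probe sets. Map3k7, encoding TAK1 itself, and Ikbkb, encoding IKK beta, did not reach the floor on either array, and Ikbkg had no probe set naming it alone. The kinase step was therefore seen only in part.

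The NF-kB subunits were measured for 4 of 5 genes. Rela, the p65 subunit that activates transcription, had 71.8 on both arrays, again exactly equal. Relb, the transactivating subunit of the alternative pathway, had 78.3 on the OGD array and 72.4 on the resting array, 1.08-fold higher. Nfkb1, the precursor of p50, had 35.5 on the OGD array and 33.3 on the resting array, 1.06-fold higher. Nfkb2, the precursor of p52, had 59.0 on the OGD array and 57.3 on the resting array, 1.03-fold higher. All 4 log2 differences lay between 0 and 0.11, within the SD between probe sets of a gene. Rel had no probe set naming it alone.

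The IkB family holds NF-kB in the cytosol or modifies it in the nucleus. Nfkbia, which encodes IkB alpha and is itself induced by NF-kB, had 523 on the OGD array and 505 on the resting array, 1.04-fold higher. Nfkbib, encoding IkB beta, had 125.9 on the OGD array and 144.5 on the resting array, 1.15-fold lower, with a log2 difference of -0.20. Its size exceeds the SD between probe sets, which 29.9% of all genes above the floor on both arrays reached. Nfkbiz, a nuclear IkB protein that acts as a co-activator, had 63.7 on the OGD array and 67.7 on the resting array, 1.06-fold lower. Bcl3, another nuclear IkB protein, had 83.6 on both arrays, exactly equal, while its second probe set had 34.0 on the OGD array and 30.1 on the resting array, a log2 difference of 0.18. The log2 differences of the 4 measured IkB genes thus ran from -0.20 to 0.051, and Nfkbie had no probe set naming it alone.

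Promoters of Nfkbia, Nfkb2 and the inhibitor gene Tnfaip3 are shown because NF-kB is known to induce all 3 genes and its recognition letters can be read in them. Each is the 250 bases before the RefSeq start in build GRCr8, 5′ to 3′ on the gene's strand, with matches to GGGNNNNNCC on either strand in capitals, overlapping matches joined. Nfkbia lies at chr6:78597073-78597322, minus strand, Nfkb2 at chr1:255108124-255108373, plus strand, and Tnfaip3 at chr1:15543980-15544229, minus strand.
Nfkbia: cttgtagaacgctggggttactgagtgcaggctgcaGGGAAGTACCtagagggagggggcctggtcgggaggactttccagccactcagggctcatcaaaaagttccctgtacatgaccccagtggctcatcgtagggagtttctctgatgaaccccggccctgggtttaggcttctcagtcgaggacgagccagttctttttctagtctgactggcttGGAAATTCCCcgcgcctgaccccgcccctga
Nfkb2: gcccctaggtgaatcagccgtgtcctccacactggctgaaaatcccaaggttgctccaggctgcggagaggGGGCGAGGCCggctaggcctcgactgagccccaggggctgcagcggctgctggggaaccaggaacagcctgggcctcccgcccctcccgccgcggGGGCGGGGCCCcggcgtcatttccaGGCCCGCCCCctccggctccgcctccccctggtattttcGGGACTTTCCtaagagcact
Tnfaip3: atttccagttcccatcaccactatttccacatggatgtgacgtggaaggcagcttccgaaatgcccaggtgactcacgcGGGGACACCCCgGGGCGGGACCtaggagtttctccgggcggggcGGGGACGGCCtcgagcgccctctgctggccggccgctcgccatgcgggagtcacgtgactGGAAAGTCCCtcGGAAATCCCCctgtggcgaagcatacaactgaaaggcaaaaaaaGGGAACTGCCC

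In the Nfkbia window the capitals mark 2 stretches, the nearer one being GGAAATTCCC, from 31 to 22 bases before the start. In the Nfkb2 window there were 4 stretches, and the nearest, GGGACTTTCC, stood 20 to 11 bases before the start. The Tnfaip3 window held 6 stretches, among them GGAAAGTCCC from 67 to 58 bases before the start, which is the same letters as GGGACTTTCC read on the other strand. Such matches are common: 50% of the 44 list members with a promoter in the table held at least 1, against 43.4% of 27457 promoters of the same length. Of the measured genes, the 14 with a match had a median log2 difference of 0.047, against 0.0082 for the 10 without one, and the other 6 had no promoter in the table. The values overlapped, from -0.20 to 0.26 with a match and from -0.21 to 0.13 without one. The SD of 0.147 between probe sets is a spread of single probe sets, not of a median over genes, so it cannot judge this split. The same split was not made over all genes, and whether the values differ by a match was not tested. The letters describe the windows and say nothing of binding in these cells.

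Casp4 and Nod1, of the inflammasome and NOD genes, had the 2 highest log2 differences of the 30 measured genes. Casp4, which encodes a caspase known in human and mouse to respond to cytosolic lipopolysaccharide, had 68.5 on the OGD array and 54.1 on the resting array, 1.27-fold higher. Its log2 difference of 0.34 was the largest in size of the 30 and the only one beyond 2 SD of the spread between probe sets, a size that 5.18% of all genes above the floor on both arrays also passed. Nod1, the cytosolic sensor of bacterial peptidoglycan fragments, had 35.7 on the OGD array and 29.8 on the resting array, 1.195-fold higher, with a log2 difference of 0.257. Casp1, the caspase that matures interleukin-1 beta and interleukin-18, had 81.1 on the OGD array and 72.8 on the resting array, 1.11-fold higher. These 3 were all of the group that could be measured, each on a single probe set, so no second probe set bears on them. Beside them, and beside Tlr2, stand the 3 measured of 7 astrocyte markers, with log2 differences from 0.13 to 0.43, and Vwf, the 1 endothelial marker measured, with 0.28. Oligodendrocyte and neuronal markers had both signs. The part of such cells in these values was not tested.

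The scaffold of the inflammasome could not be followed. Pycard, the adaptor ASC, had 11.6 on the OGD array and 16.3 on the resting array, both under the floor, so no fold is given although the raw values differ. Ripk2, the kinase below NOD1, was also under the floor, with 5.32 on the OGD array and 6.17 on the resting array. The sensors Nlrp3, Aim2, Nlrc4 and Nod2 had no probe set naming them alone.

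Genes induced by NF-kB or in the acute phase showed no common direction. Nos2, the inducible nitric oxide synthase, had 173.7 on the OGD array and 175.7 on the resting array, and its log2 difference of -0.017 became 0.0091 at the highest under other scalings. Tnfaip2, a cytokine-induced protein of membrane tubes, had 79.2 on the OGD array and 75.2 on the resting array, 1.05-fold higher. A second probe set of Tnfaip2 was also higher, with 48.7 on the OGD array and 45.7 on the resting array. The last one above the floor was lower, with 28.4 on the OGD array and 31.0 on the resting array, a log2 difference of -0.12. Saa3, an acute-phase apolipoprotein, had 47.0 on the OGD array and 54.3 on the resting array, 1.16-fold lower and the lowest of the 30 log2 differences at -0.21.

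Tnfaip3, which encodes the ubiquitin-editing inhibitor A20, was under the floor with 6.02 on the OGD array and 5.88 on the resting array. Tnfaip6, a hyaluronan-binding protein, and the iron-scavenging lipocalin Lcn2 were also under the floor on both arrays in all of their probe sets. The A20 promoter printed above therefore stands beside a transcript that this probe set did not register above the floor on either array.

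**Figure D3:**
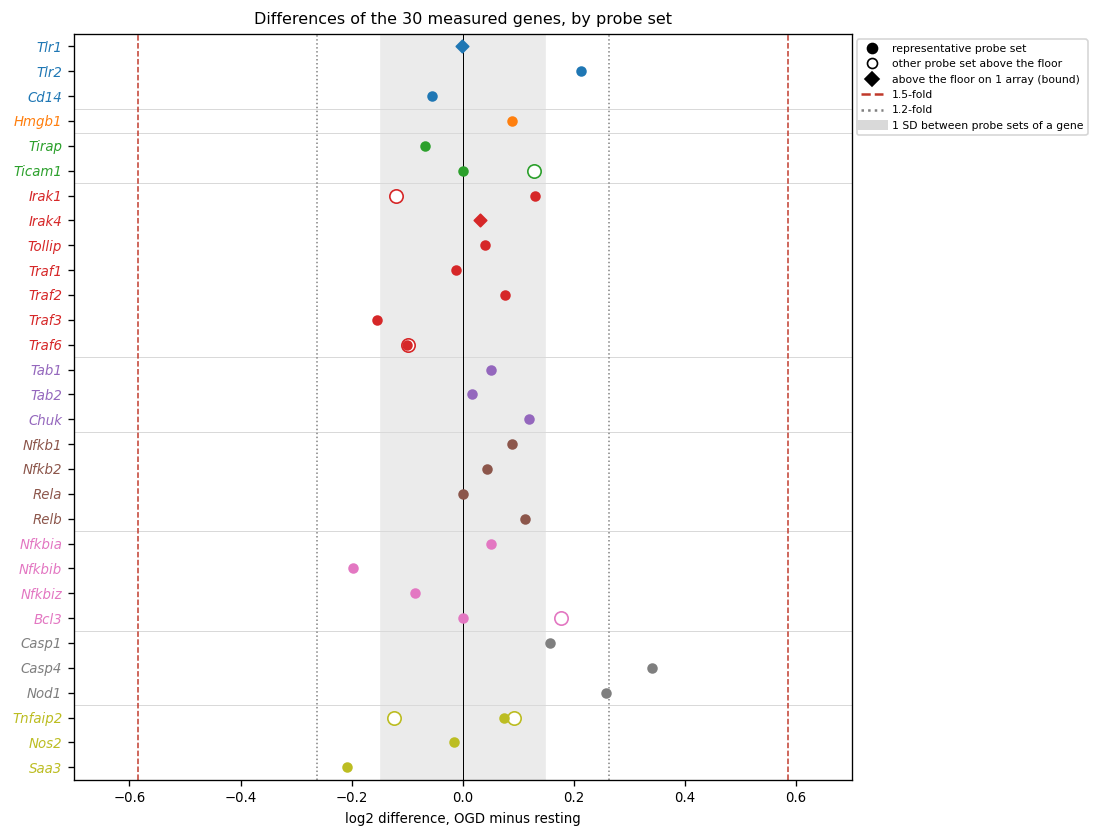
Log2 difference (OGD minus resting) of the 30 measured genes by probe set, with representative probe sets filled, other probe sets that passed the floor on each array open, and genes above the floor on 1 array as diamonds. Casp4 alone passes the dotted 1.2-fold line, none reaches the dashed 1.5-fold line, and the grey band is 1 SD (0.147) between probe sets of a gene.

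Of the 28 genes above the floor on both arrays, 21 had a log2 difference within 1 SD of the spread between probe sets and 7 were at or beyond it. These 7 were Casp4, Nod1, Tlr2 and Casp1 on the higher side and Saa3, Nfkbib and Traf3 on the lower side. They make up 25% of the 28, against 29.9% of all genes above the floor on both arrays. Within the list 5 genes had more than 1 probe set that passed the floor on each array, and these 11 probe sets differed among themselves with an SD of 0.118. In Irak1 and Tnfaip2 the probe sets took opposite signs, and in Ticam1 and Bcl3 one probe set was equal and the other higher on the OGD array.

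Exactly equal values were found for the representative probe sets of Ticam1, Rela and Bcl3, 10% of the measured genes of the list, against 5.87% of all measured genes. Over all probe sets, floor aside, 6 of the 62 of the list were equal, which is 9.68% against 8.70% for the array. The authors' processing that left these ties is not stated in the labels used here, and whether these genes were truly even was not tested.

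Beyond the list, 85 other genes of the same pathways were looked up, of which 65 had a probe set naming them alone and 44 were measured. By sign 20 were higher, 21 lower and 3 equal on the OGD array, with a median log2 difference of 0 and 0 past 1.5-fold (background 0.115%). Tank, a TRAF-binding regulator of NF-kB and of the kinase TBK1, had 33.0 on the OGD array and 23.3 on the resting array, 1.42-fold higher. Panx1, the membrane channel that releases ATP, had 31.8 on the OGD array and 26.0 on the resting array, 1.23-fold higher. Cyld, a deubiquitinase that restrains NF-kB, had 81.1 on the OGD array and 66.2 on the resting array, also 1.23-fold higher. On the lower side Il1rap, the shared chain of interleukin-1 receptors, had 21.7 on the OGD array and 26.4 on the resting array, 1.22-fold lower. Irf7, an interferon regulatory factor, had 269 on the OGD array and 317 on the resting array, 1.18-fold lower. Ube2n, the ubiquitin-conjugating enzyme that works with TRAF6, had 294 on the OGD array and 340.1 on the resting array, 1.16-fold lower. Of these 44 genes 4 passed 1.2-fold, which is 9.09% against 7.53% of all measured genes.

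**Figure D4:**
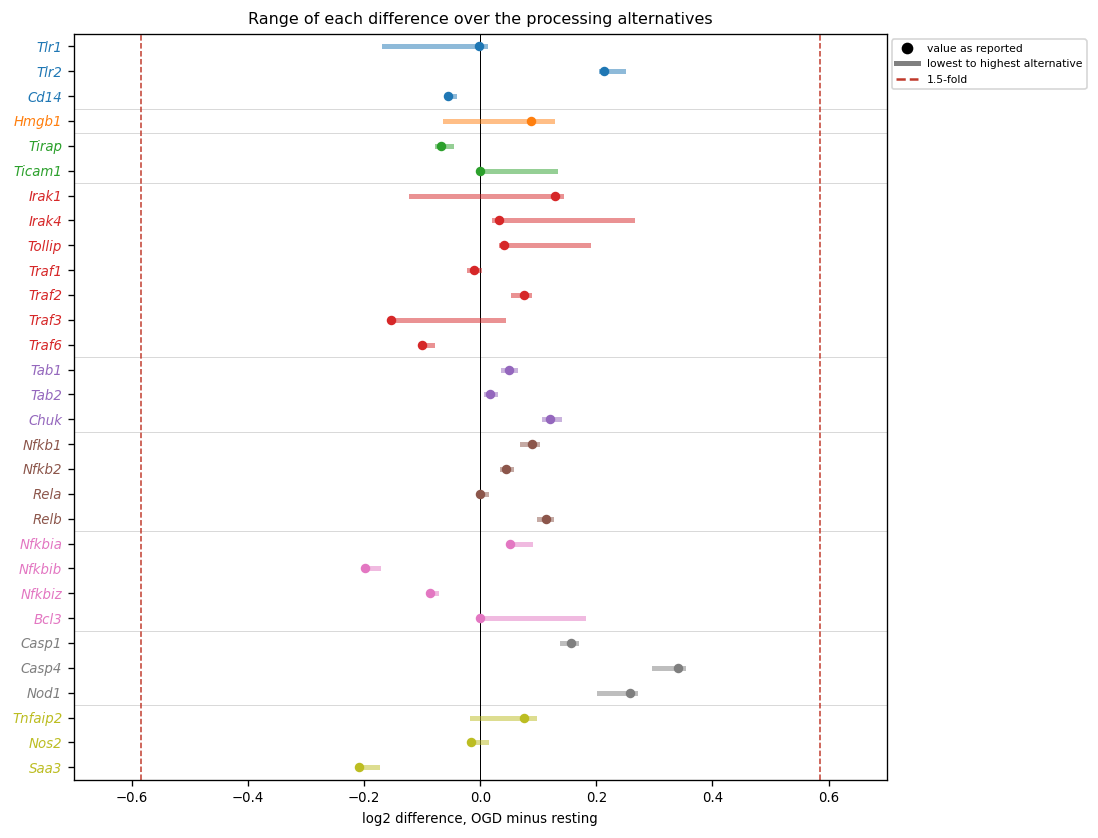
Log2 difference (OGD minus resting) of each of the 30 measured genes as reported (points) and its lowest to highest value over the processing alternatives (bars). Every bar stays inside the dashed 1.5-fold lines, and the bars of Tlr1, Hmgb1, Irak1, Traf3, Tnfaip2 and Nos2 cross 0.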

How the data were processed

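Total RNA was extracted with TRIzol, primed with oligo(dT) and labelled with biotin for an expression array, per the labels' protocols. The deposited values are linear intensities of probe sets. How the authors corrected background, summarised probes and scaled the arrays is not stated in the labels used here. Of 31042 probe sets besides 57 controls, 20826 named 1 gene, and symbols were updated by Entrez ID through RefSeq (GRCr8), where 20758 had their ID. Each gene was read from the probe set with its highest mean. Values under an array's median were set to it, and differences are log2 OGD minus log2 resting, counted at 1.5-fold. Every measured member is named, and of the other pathway genes the 3 largest differences in each direction. The members and lists were chosen with earlier results of these data known. With 1 array per group no test was run, and the number of arrays limits the precision. The calculation was tested on simulated data with changes of 2-fold or more in genes well above the floor. That test does not bear on smaller differences, such as those of the list, or on genes near the floor. Alternatives were other floors, scalings, probe set choices, a pseudocount and other thresholds. Promoters are from the RefSeq table, where 44 of the 56 symbols matched. Python 3.11.15, pandas 2.3.3 and statsmodels 0.14.6 were used.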

Additional observations from a re-analysis of the deposited data

How the results depend on the processing

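The count of 0 list genes past 1.5-fold was the same under all 12 alternatives in floor, scaling and choice of probe set and at 2-fold, and became 1 at 1.2-fold. At 1.2-fold the list had 1 higher and 1 lower with a floor at the 30th percentile, 3 higher and 4 lower with no floor and 2 higher with centring. The other pathway genes likewise had 0 under these and 4 at 1.2-fold. The median of the list stayed above 0, from 0.0082 with the lower floor or none to 0.092 over the 5 genes with a next brightest probe set above the floor. The median over all measured genes was 0 under each of these settings. By sign the list had 17 higher and 13 lower with the lower floor, and 22 higher and 18 lower with no floor. For all genes, the count of 11 past 1.5-fold was 37 with a floor at the 30th percentile, 4 at the 70th, 58 with no floor, 7 for next brightest probe sets, 5 with a pseudocount, 721 at 1.2-fold and 0 at 2-fold. Of 319 recomputed values of single list genes, 0 passed 1.5-fold and 7 took the opposite sign, in Tlr1, Irak1, Traf3, Tnfaip2, Hmgb1 and Nos2. Irak1 did so with its next brightest probe set, and Traf3, Tnfaip2 and Hmgb1 with the mean over probe sets. Tlr1 did so with centring, and Nos2 with quantile and loess scaling, both from values near 0. With centring, quantile or loess scaling 21 list genes were higher and 9 lower. The genes equal on both arrays then took a positive sign, and Tlr1 or Nos2 changed sign as given above. No paired analysis was possible because each group has 1 array. Without replicates these values describe 2 arrays, and a probe set near or under the floor can hide a difference.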

Other observations

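Some deposited values fall on a regular grid. For 919 probe sets, 2.96% of those besides controls, both arrays held a multiple of 0.5 plus the same offset, within 0.0001, and among the 3586 probe sets over 100 on both arrays the share was 8.76%. Of the list's 62 probe sets 5 did so, those of Tlr2 and Nos2, 1 of Traf6 and 2 of Tnfaip2, so that Nos2 differed between the arrays by exactly 2 units lower and Tlr2 by 51.5 units higher on the OGD array. The offset, 0.165, was taken from the value of Tlr2 on the OGD array, so that value lies on the grid by choice. The list's count is therefore not comparable with the share over the array. The cause of the grid was not tested.

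A probe set that names both Nos2 and the pseudogene Nos2-ps1 was under the floor, with 16.3 on the OGD array and 15.4 on the resting array. The core letters of the hypoxia response element, ACGTG or GCGTG on either strand, were found in the promoter window of 45.5% of the 44 list members with one, against 37.8% of 27457 promoters. Of the 12 measured genes with such a match 8 were higher, 3 lower and 1 equal on the OGD array, with a median log2 difference of 0.036. Of the 12 without one 6 were higher, 5 lower and 1 equal, with a median of 0.022. Over all measured genes 42.8% were higher and 51.3% lower, and the same split by letters was not made for them. The SD of 0.147 between probe sets of a gene is a spread of single probe sets, not of a median over genes, so it cannot judge this split. Whether the values differ by these letters was not tested.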
